A study of Toxocara canis with 2 samples.

Results

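The 3 unigenes described here were chosen by their annotation as candidate regulators of sex in Toxocara canis, the roundworm of dogs, out of 70267 unigenes seen in either library. A unigene is an assembled transcript, and names starting with CL stand for groups of similar contigs. CL2133.Contig2_All is described as a DM-domain protein with mab-3 as its Swiss-Prot match, CL4948.Contig2_All has a mammalian DM-domain factor as its Swiss-Prot match, and Unigene20774_All has tra-1. The shared suffix _All is left out from here on. Polyadenylated RNA from the entire body of 1 adult female and 1 adult male worm, both labelled strain Rongchang, was sequenced as 1 library per sex. The comparison asks which genes are transcribed differently between the sexes. Depth was 19.8 M fragments over 58435 unigenes in the female library, against 18.4 M over 64618 in the male library. With 1 worm and 1 library per sex there is no spread between replicates, no test was possible, and intervals below cover counting error only.

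In Caenorhabditis elegans, sex is set by a chain of inhibitions that ends at TRA-1, a zinc finger repressor of the GLI family. In males the secreted ligand HER-1 blocks the receptor TRA-2, which frees the FEM proteins to pass TRA-1 to a cullin-2 ubiquitin ligase. In hermaphrodites TRA-1 stays active and represses male genes, among them mab-3. MAB-3 belongs to the DM-domain family, which shares a zinc-binding DNA contact module with Drosophila doublesex and the vertebrate Dmrt factors. In C. elegans males it acts in sensory ray and tail development and represses yolk genes in the intestine. In whole worms fewer cells of a type and less RNA per cell cannot be told apart.

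All 3 unigenes differed between the libraries, the mab-3 and Dmrtb1 matches being higher in the male and the tra-1 match in the female library. Levels are in FPKM, fragments scaled to the length of the unigene and the total of the library. CL2133.Contig2, the mab-3 match, stood at 0.384 FPKM (18 fragments) in the female library, against 17.8 FPKM (776 fragments) in the male library. CL4948.Contig2 had 0 fragments in the female library, against 27.3 FPKM (509 fragments) in the male library. Unigene20774, the tra-1 match, stood at 23.2 FPKM (1057 fragments) in the female library, against 8.24 FPKM (348 fragments) in the male library. The mab-3 and tra-1 matches were thus seen in both libraries, and CL4948.Contig2 only in the male one.

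**Figure D1:**
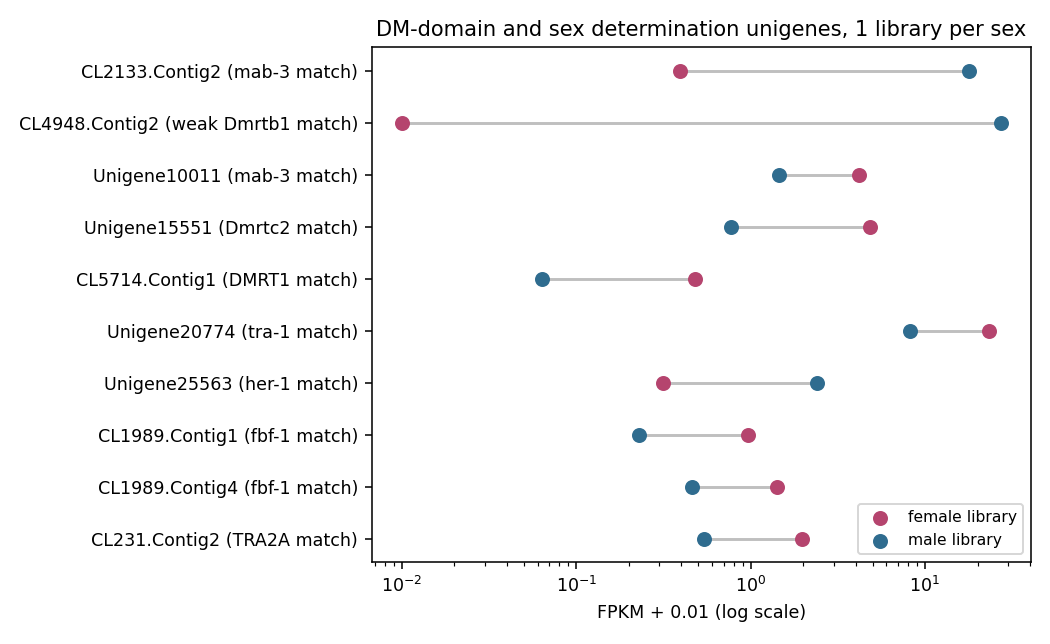
FPKM plus 0.01 on a log axis for each unigene of the DM-domain and sex determination lists, with a point per library, female and male, joined by a line. The mab-3 match CL2133.Contig2 lies at 0.384 FPKM in the female and 17.8 FPKM in the male library, and the tra-1 match Unigene20774 at 23.2 FPKM in the female and 8.24 FPKM in the male library. CL4948.Contig2 and the her-1 match are also higher in the male library, and the other 7 unigenes in the female library.

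CL2133.Contig2 took 46.5 times as large a share of the male library as of the female library (exact 95% Clopper-Pearson interval 29.2 to 78.8). For CL4948.Contig2 the difference is a bound: the exact 95% interval from the female count of 0 starts at 148-fold higher in the male library. Set against 3 fragments in the female library, the male level was 183-fold higher. A count of 3 fragments on this unigene equals 0.149 FPKM in the female library. Unigene20774 was 2.82-fold higher in the female library (interval 2.49 to 3.19). On the scale log2((female FPKM + 1)/(male FPKM + 1)), which understates the change of low unigenes, the values were -3.77 for CL2133.Contig2, -4.82 for CL4948.Contig2 and 1.39 for Unigene20774. The authors' deposited table gives log2 ratios of -5.54, -14.74 and 1.495 for them, in the same order and as female over male FPKM. The authors replaced an FPKM of 0 by 0.001, so the second of these values depends on that replacement.

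A size rule was set at 5 FPKM or more where the unigene is higher plus a log2 value of 2 or more in size. That value is 4-fold after adding 1 FPKM to each level. The rule was passed by 2 of the 3 unigenes, CL2133.Contig2 and CL4948.Contig2. Both were higher in the male library, as were 4.5% of all 70267 unigenes by the same rule, while 2.38% passed it in the female direction and 6.87% in either. The tra-1 match did not pass. Names are available only for the 21280 unigenes of the authors' table, 30.3% of all. Every unigene there has a deposited log2 ratio of 1 or more in size and a deposited false discovery rate of at most 0.000994. A difference between the libraries was therefore a condition for being named, and nothing is read from the members' count. Among these named unigenes, 7.84% passed the size rule in the female and 14.8% in the male direction.

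**Figure D2:**
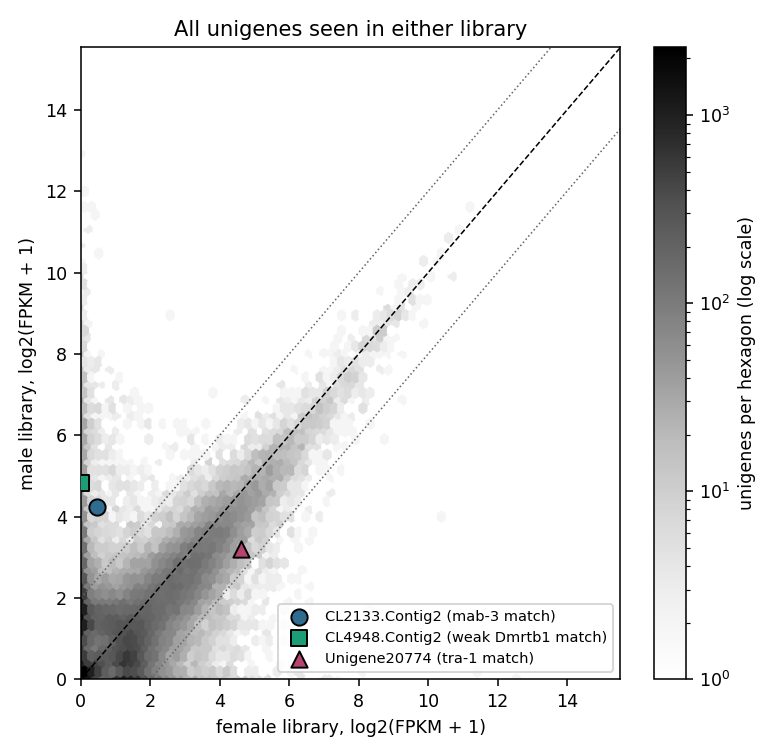
Each of the 70267 unigenes by its log2(FPKM + 1) in the female library (horizontal axis) and the male library (vertical axis), with grey shade for the number of unigenes per hexagon on a log scale. The dashed line marks equal levels and the dotted lines a log2 difference of 2; CL2133.Contig2 and CL4948.Contig2 lie above the upper dotted line at -3.77 and -4.82, and Unigene20774 at 1.39 lies between the dotted lines.

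In the library where each was higher, its level was above that of most unigenes. In the male library 93.4% of all unigenes had a lower FPKM than CL2133.Contig2 and 95.4% a lower FPKM than CL4948.Contig2. In the female library 94.8% had a lower FPKM than Unigene20774. The tra-1 match was also well measured in the other sex, where 86.8% of unigenes lay below it. The mab-3 match in the female library was above 33.7% of all 70267 unigenes, of which 58435 were seen in that library. Unigenes with 0 fragments in a library thus count as lower in these shares. Of 4645 unigenes with at least the male FPKM of CL2133.Contig2, 1065 (22.9%) had at least its male excess or 0 female fragments. Of 3634 unigenes with at least the female FPKM of Unigene20774, 774 (21.3%) had at least its female excess or 0 male fragments. With 0 female fragments and at least as many male fragments as CL4948.Contig2, 334 unigenes were found, itself included, or 0.475% of all.

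The order of the mab-3 and tra-1 matches differed between the libraries. Per unit of length, the tra-1 match was 60.5 times as abundant as the mab-3 match in the female library. In the male library the mab-3 match was 2.17 times as abundant as the tra-1 match. The unigenes were of like length, at 2368 bases for CL2133.Contig2 and 2300 bases for Unigene20774, and the median over all unigenes was 543 bases. CL4948.Contig2 was shorter, at 1015 bases.

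The strength of the annotation differed among the 3. CL2133.Contig2 had a Brugia malayi DM DNA binding domain protein as its best Nr match, with a deposited alignment score of 345.5. Its Swiss-Prot match to C. elegans mab-3 scored 169 (E-value 3e-41). Its deposited Gene Ontology terms were sex differentiation, tail tip morphogenesis and repression of transcription. Unigene20774 matched TRA-1 of Caenorhabditis briggsae with a score of 174 (E-value 1e-42), a Brugia C2H2 zinc finger protein with 185.7, and the KEGG entry for zinc finger protein GLI. CL4948.Contig2 rested on a match to mouse Dmrtb1 with a score of 42 (E-value 4e-06), the lowest of the DM-domain list. Its best Nr match was an uncharacterised protein of the filarial worm Loa loa, with a score of 151.4, and it had no Gene Ontology term. The DM-domain label of CL4948.Contig2 thus rests on that match alone.

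A wider look at that Loa loa match, chosen after the values were seen, gave 7 unigenes with the same best Nr match. None of the other 6 had a Swiss-Prot match of any kind. All 7 were higher in the male library, with log2 values between -10.87 and -2.80, and all 7 passed the size rule there. Of the authors' table, 55.7% had their higher level in the male library, and 14.8% met the size rule in that direction. Only unigenes that differed between the libraries were named, so nothing is read from the count of 7. The companion contig CL4948.Contig1, of 1398 bases, had the same Nr score of 151.4 and stood at 0.0723 FPKM (2 fragments) in the female library, against 83.2 FPKM (2135 fragments) in the male library, a ratio of 1150 (interval 318 to 9504). Unigene30673 was the most abundant, at 0.135 FPKM (3 fragments) in the female library, against 2131 FPKM in the male library. Unigene30676 stood at 0.0341 FPKM (1 fragment) in the female library, against 1089 FPKM in the male library. CL4948.Contig2 was among the lower members of this group, and 3 of the 7 had 0 female fragments. Summed, the 7 unigenes took 0.000222% of female fragments and 0.443% of male fragments.

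**Figure D3:**
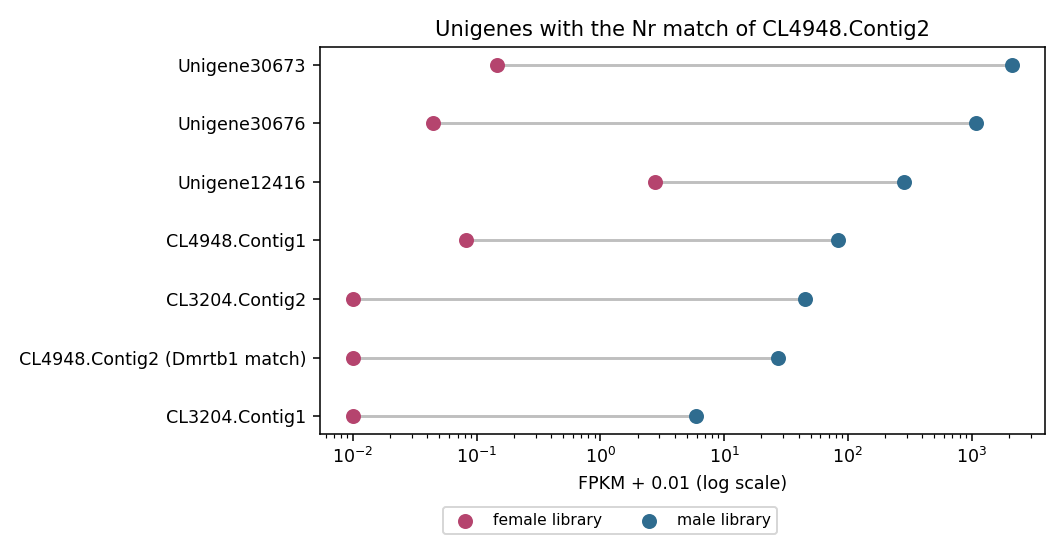
FPKM plus 0.01 on a log axis for the 7 unigenes whose best Nr match is that of CL4948.Contig2, with a point per library, female and male, ordered by the male level. All 7 lie to the right in the male library, from 5.97 FPKM for CL3204.Contig1 to 2131 FPKM for Unigene30673, and the female points reach 2.74 FPKM for Unigene12416.

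Contigs of a cluster can share reads, so the counts of CL4948.Contig1 and CL4948.Contig2 are uncertain as a split. Added together they held 2 female and 2644 male fragments, a ratio of 1424 (interval 394 to 11769). The CL2133 cluster hardly changed on adding its other contig. CL2133.Contig1, of 665 bases, had 0 female fragments and 1 male fragment, and the cluster ratio stayed at 46.5 (interval 29.2 to 78.9).

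The other DM-domain unigenes, CL4948.Contig2 apart, were higher in the female library. The list of DM-domain descriptions held 5 unigenes of the authors' table, 3 higher in the female and 2 higher in the male library. The size rule was passed by 0 in the female and 2 in the male direction, against 7.84% and 14.8% of the table. The list median of log2 was 0.48, against -0.78 over all unigenes of the table, of which 9435 were higher in the female and 11845 in the male library. Unigene10011, a further match to mab-3 with a score of 88.2, stood at 4.19 FPKM (56 fragments) in the female library, against 1.45 FPKM (18 fragments) in the male library. It was 2.89-fold higher in the female library (interval 1.67 to 5.22). Both mab-3 matches thus differed between the libraries in opposite directions. The male-higher CL2133.Contig2, of 2368 bases, had the higher score, and Unigene10011 was shorter, at 676 bases.

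The remaining DM-domain matches were low. Unigene15551, of 356 bases, had a Swiss-Prot match to mouse Dmrtc2 and stood at 4.83 FPKM (34 fragments) in the female library, against 0.765 FPKM (5 fragments) in the male library. Its ratio was 6.31 (interval 2.46 to 20.7). CL5714.Contig1 matched chicken DMRT1, which in vertebrates is needed for testis development. It stood at 0.472 FPKM (19 fragments) in the female library, against 0.0535 FPKM (2 fragments) in the male library, a ratio of 8.82 with an interval of 2.13 to 78.1. None of these female-higher unigenes reached 5 FPKM in either library. Without CL4948.Contig2 the list held 4 unigenes with a median of 0.78, of which 3 were higher in the female and 1 in the male library. Summed over these 4, the DM-domain level was 9.87 FPKM in the female library and 20.1 FPKM in the male library, and CL2133.Contig2 made up most of the male sum.

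The sex determination list held 5 unigenes, the tra-1 match among them, 4 higher in the female and 1 in the male library, with a median of 0.73. By the size rule 0 passed in either direction, against 7.84% of the authors' table in the female and 14.8% in the male direction. Of that table, 44.3% were higher in the female and 55.7% in the male library, with a median of -0.78. Unigene25563, a match to her-1, the male-promoting ligand, was the member higher in the male library. It stood at 0.304 FPKM (3 fragments) in the female library, against 2.40 FPKM (22 fragments) in the male library, and its male over female ratio was 7.90 (interval 2.37 to 41.2). The list also held 2 contigs of cluster CL1989 that matched fbf-1, a pumilio-type RNA-binding protein that represses fem-3 in the C. elegans germline. CL1989.Contig1 was 4.33-fold (interval 1.76 to 12.8) and CL1989.Contig4 3.14-fold higher (interval 1.66 to 6.36) in the female library, at 0.954 and 1.41 FPKM there. CL231.Contig2 matched human TRA2A, a splicing factor related to Drosophila transformer-2 and not to the C. elegans receptor TRA-2. It stood at 1.95 FPKM in the female library, against 0.533 FPKM in the male library. Apart from the tra-1 match every member of this list was under 5 FPKM in both libraries.

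The KEGG entry for zinc finger protein GLI, which the tra-1 match carries, was also given to Unigene6283 and Unigene2872. Both were higher in the female library too. Unigene6283, whose Swiss-Prot match is Drosophila jing, stood at 18.4 FPKM in the female library, against 3.98 FPKM in the male library (4.61-fold, interval 3.79 to 5.65). Unigene2872, with JAZF1 as its Swiss-Prot match, stood at 24.5 FPKM in the female library, against 9.30 FPKM in the male library (2.63-fold, interval 2.33 to 2.98). Levels and ratio of Unigene2872 were close to those of the tra-1 match. This entry was looked up after the values were seen.

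Components of cullin ubiquitin ligases, the class of enzyme through which C. elegans males lose TRA-1, formed a list of 8. Of these, 2 were higher in the female and 6 in the male library, with a median of -1.41, while 44.3% of the authors' table were higher in the female and 55.7% in the male library. The size rule was passed by 0 in the female and 1 in the male direction, against 14.8% of the table in the male direction. Unigene23, the match to cullin-2, stood at 15.9 FPKM (1527 fragments) in the female library, against 49.6 FPKM (4415 fragments) in the male library, 3.12-fold higher in the male (interval 2.94 to 3.30). The RING-box matches, the subunits that recruit the ubiquitin-conjugating enzyme, went the same way. Unigene19005 stood at 14.8 FPKM in the female library, against 45.8 FPKM in the male library. Unigene2592, a cullin-1 match, was the member that passed, at 21.9 FPKM in the female library, against 131 FPKM in the male library (6.0-fold, interval 5.70 to 6.32). Unigene6432, a cullin-5 match, ran the other way at 26.2 FPKM in the female library, against 12.2 FPKM in the male library. The cullin-4 contigs of cluster CL2646 differed from each other. CL2646.Contig1 was 5.61-fold higher in the female library (interval 3.52 to 9.38) and CL2646.Contig2 3.03-fold higher in the male library (interval 2.27 to 4.09).

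Other regulator families of the table ran in different directions. Over the authors' table, 44.3% were higher in the female and 55.7% in the male library. The size rule was passed by 7.84% of it in the female and 14.8% in the male direction. Of 37 unigenes with nuclear receptor in the description, 33 had a Swiss-Prot match to a nuclear hormone receptor family member, and the others included a receptor-binding kinase and a corepressor. Of the 37, 35 were higher in the female and 2 in the male library, and the median was 1.04. The female-higher ones included 9 contigs of cluster CL214, which may share reads, and without that cluster 26 of 28 were higher in the female library. The size rule was passed by 6 in the female, the kinase CL4145.Contig1 among them, and 0 in the male direction, but by 3 in the female direction under median-of-ratios scaling. Unigene5287, whose best Nr match is NHR-32, had the highest log2 value of the list, 2.60 with the pseudocount, at 26.2 FPKM in the female library, against 3.48 FPKM in the male library (7.51-fold, interval 6.05 to 9.42). In the C2H2 zinc finger list, which also took in AN1-type fingers, 43 of 65 members were higher in the female and 22 in the male library. The size rule was passed by 5 in the female and 6 in the male direction, a balance that turned with the scaling. Without the 100 most abundant unigenes it was 8 in the female and 6 in the male direction, and with median-of-ratios scaling 2 in the female and 7 in the male direction. The 6 male-direction members had low Swiss-Prot scores, 50.8 to 55.5, and CL264.Contig1, CL264.Contig2 and Unigene26624 among them matched AN1-type fingers. The 5 female-direction members scored 75.1 to 295. The list median was 0.89. The homeobox and T-box list had 16 of 25 members higher in the female and 9 in the male library. Here 5 passed the size rule in the female and 2 in the male direction, and the median was 0.97. Of the male-higher members, Unigene29965 and Unigene7250 matched a Dictyostelium homeobox protein and carry KEGG entries for ankyrin repeat subunits. The female-higher Unigene2807 had an HMG box protein as its Nr match. Contigs of clusters CL915 and CL2666, which may share reads, are among the 25. An HHEX-type homeobox match (Unigene39748) stood at 147 FPKM in the female library, against 0.0954 FPKM (1 fragment) in the male library, a ratio of 1545 (interval 277 to 61069). A ceh-6 match (Unigene26579), a POU-class homeobox factor, stood at 0.106 FPKM (3 fragments) in the female library, against 21.3 FPKM in the male library, a male over female ratio of 200.4 (interval 68.2 to 975).

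**Figure D4:**
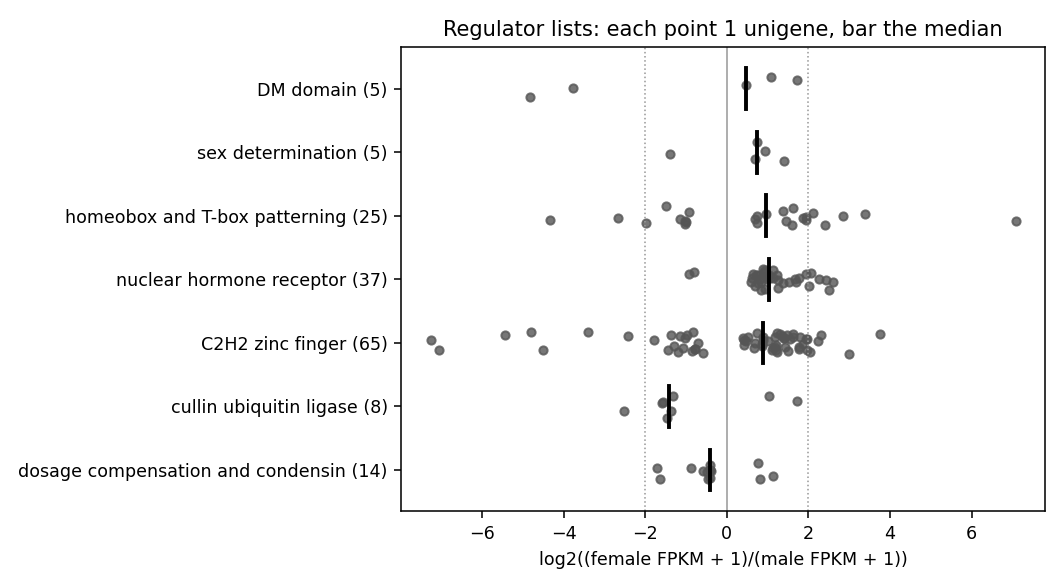
Each point is 1 unigene of a regulator list by its log2((female FPKM + 1)/(male FPKM + 1)), the black bar is the list median and the dotted lines mark 2 in size. The DM-domain points lie at -4.82, -3.77 and between 0.48 and 1.72, and the median is highest for the nuclear hormone receptors (1.04) and lowest for the cullin ligases (-1.41). The band around 0 is empty, and the authors' table lists no unigene with a deposited log2 ratio under 1 in size. Adding 1 FPKM draws low unigenes nearer to 0 than their deposited ratio: CL106.Contig6, deposited at -2.28, lies at -0.376.

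The search for dosage compensation and condensin descriptions found chromosome-structure proteins (condensin subunits and SMC proteins) and 0 unigenes described as dosage compensation proteins. Of its 14 members, 3 were higher in the female and 11 in the male library. Its median was -0.42 and 0 members passed the size rule in either direction. The authors' table had a median of -0.78, with 44.3% higher in the female and 55.7% in the male library. Of that table, 7.84% passed the size rule in the female and 14.8% in the male direction. Of the 14, 8 were contigs of a single cluster, CL106, that matched a condensin subunit and may share reads. The most abundant of them, CL106.Contig32, stood at 3.35 FPKM in the female library, against 6.96 FPKM in the male library.

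Yolk genes, which MAB-3 represses in C. elegans males, were abundant in the female library. Unigene14425, a vitellogenin, stood at 14049 FPKM in the female library, against 0.286 FPKM in the male library, and Unigene4105, the other unigene with that Nr description, at 1008 FPKM in the female library, against 73.6 FPKM in the male library. The search for vitellogenin also found 10 unigenes with a low-scoring Swiss-Prot match to a chicken or fish vitellogenin (scores 61.2 to 75.1), for which a role in yolk cannot be read from the match. All 10 were higher in the male library, and the median of -0.84 over the 12 comes from these matches. Contigs of clusters CL13 and CL1937, which may share reads, are among the 10. The size rule was passed by 2 in the female direction, both of them the vitellogenins above, and by 4 in the male direction. Of the authors' table, 7.84% passed in the female and 14.8% in the male direction.

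Sperm, yolk and eggshell markers moved with sex beside all of these values. Of 74 sperm marker unigenes, 3 were higher in the female and 71 in the male library, with a summed level of 106 FPKM in the female and 61476 FPKM in the male library, and 39 had 0 female fragments. Of 59 yolk and eggshell unigenes, 44 were higher in the female and 15 in the male library, with a summed level of 103212 FPKM in the female and 952 FPKM in the male library. In the female library 10 of these 59 had 0 fragments, and in the male library 1. The 59 include the 12 unigenes of the vitellogenin search. Its 10 low-scoring matches, all higher in the male library, are thus counted here. Of these 12, 9 had 0 female fragments. The part of gonad tissue in the levels of the 3 unigenes was not tested.

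The described unigenes nearest to each member in their levels were of varied kinds, by the distance between log2(FPKM + 1) values over the 2 libraries. For CL2133.Contig2 they were a small heat shock protein (CL1702.Contig4, distance 0.0563), a transaldolase (CL4729.Contig3, 0.0818) and a casein kinase 1 family protein (CL4937.Contig2, 0.142). For CL4948.Contig2 they were a kinase matching tau-tubulin kinase 1 (CL3890.Contig1, 0.0143), a ubiquitin-conjugating enzyme (CL2880.Contig1, 0.0294) and an ILE-2 lectin (Unigene26594, 0.0453), all with 0 female fragments. For Unigene20774 they were a rho GTPase (CL4798.Contig3, 0.0333), an ERGIC1 match (Unigene23086, 0.0686) and an RWD domain protein (Unigene4583, 0.0688). With 2 libraries, nearness says only that the levels were alike.

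In the RefSeq gene table for the assembly Toxocara_canis_adult_r1.0, 7 of 18596 genes carry a DM-family symbol, 3 of them mab-3, 2 dmrta2, 1 dmrt1 and 1 DMRT3. A dmrt1 and a mab-3 gene are next to each other on a scaffold. The same table has 1 tra-1, 1 her-1, 1 fem-1 and 2 fem-2 genes. The files do not pair unigenes with these genes, so it is unknown which of them the DM-domain unigenes represent. No unigene of the authors' table was described as fem-1 or fem-2.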

How the data were processed

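Per the labels' protocols, RNA of an entire female and an entire male worm was extracted with Trizol, polyadenylated RNA was fragmented, copied with random primers, size-selected and amplified. Assembler, aligner, strandedness and any build: not given in the sources used here. The authors' tables hold, per the file headers, the raw fragment count and the FPKM of each unigene. The deposited FPKM equals the count over length and library total, with a largest difference of 5.0e-05. A unigene missing from a library's table was taken as 0 fragments. The authors' deposited table adds a log2 ratio, a p-value and an FDR, whose test is not named, and the alignment score of each best match.

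With 1 library per sex no test was run. Ratios compare library shares, with exact 95% Clopper-Pearson intervals. A count of 0 was set to 3 fragments only for the fold value of CL4948.Contig2 against that floor, and stayed 0 elsewhere. PCR reads carry no molecular identifiers here, so intervals and bounds cover counting error only. The 3 members, the search patterns of the lists and the size rule were chosen with earlier results of these data known. The named unigenes are the members, their cluster contigs, every member of the DM-domain and sex determination lists, the 3 most abundant and outermost of the others (described in part), and the 3 nearest neighbours. Lists were matched to Nr and Swiss-Prot descriptions without organism names. The GLI pattern matched only neuroglian (3 unigenes) and a Golgi-associated protein (2 unigenes), so it is not described (2 higher in the female and 3 in the male library, median -1.03). Alternatives were other pseudocounts, filters and scalings. Calculations ran under Python 3.11.15 with pandas 2.3.3, SciPy 1.17.1, NumPy 2.4.6 and matplotlib 3.10.9, and were tested on simulated data.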

Additional observations from a re-analysis of the deposited data

How the results depend on the processing

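Under every scaling tried, all 10 unigenes of the DM-domain and sex determination lists kept their direction and their side of the size rule. Median-of-ratios scaling lowered the log2 values by up to 0.36 (median over all unigenes -0.05, against 0.08) and gave -3.99 for CL2133.Contig2, -5.0 for CL4948.Contig2 and 1.06 for Unigene20774. A pseudocount of 0.1 FPKM gave -5.21 for CL2133.Contig2 and -8.10 for CL4948.Contig2, and 0.5 FPKM gave -4.37 and -5.80. Sums over cluster contigs gave -3.52 for CL2133 and -5.86 for CL4948, and a sum over the 7 unigenes with the same Nr match, added after seeing the data, gave -8.66. The count of unigenes passing the size rule was 1068 (female) and 1938 (male) at 10 FPKM. At a log2 value of 1 it was 4785 (female) and 4104 (male), a male share of 46.2% against 65.4%. Without the 100 most abundant unigenes of each library, and with upper-quartile scaling, Unigene6283 passed the size rule. The sign of no value reported for the members reversed. No paired analysis was possible because each sex has 1 library. Depth limits the low unigenes: 3 fragments on Unigene15551 equal 0.426 FPKM in the female and 0.459 FPKM in the male library.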

Other observations

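A group found by Gene Ontology terms after the values were seen adds further regulators. The term sex differentiation was given to 7 unigenes. Of these, 4 were higher in the female and 3 in the male library (44.3% and 55.7% of the authors' table). Among them were both contigs of cluster CL5960, which match RCD1, a subunit of the CCR4-NOT complex that shortens mRNA tails, and they lay in opposite directions. CL5960.Contig2 stood at 36.8 FPKM (866 fragments) in the female library, against 1.42 FPKM (31 fragments) in the male library, 25.9-fold higher in the female (interval 18.1 to 38.4). CL5960.Contig1 stood at 0.638 FPKM (20 fragments) in the female library, against 27.9 FPKM (811 fragments) in the male library, 43.7-fold higher in the male (interval 28.1 to 71.9). Both contigs have the same Nr match with a score of 504.6. Whether they are isoforms of a gene or copies was not tested.

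The term sex determination was given to 1 unigene of the authors' table, Unigene20605, a forkhead factor with the KEGG name forkhead box protein L, a family that includes the ovarian factor FOXL2 of mammals. It stood at 19.0 FPKM (381 fragments) in the female library, against 2.52 FPKM (47 fragments) in the male library, 7.52-fold higher in the female (interval 5.55 to 10.4). The term tail tip morphogenesis, which the mab-3 match carries, was given to 21 unigenes, 18 higher in the female and 3 in the male library, with a median of 0.57. The mab-3 match, at -3.77, was the outermost of the 3.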
